A study of Mus musculus with 10 samples.

Results

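The complement and coagulation genes described here are the 120 genes, of 51911 in the deposited table, that the table assigns to KEGG map04610. Of the 120, 95 are protein coding and 25 are pseudogenes, antisense transcripts or other non-coding entries. They were measured by RNA sequencing of liver from C57BL/6 mice fed a high-fat diet (HFD) for 8 weeks, in 5 samples of wild type (WT) and 5 of genotype Cpt1a L-/- (CKO). Both groups had the same diet, and no group on another diet was used. Cpt1a encodes carnitine palmitoyltransferase 1A, which lets long-chain fatty acids into mitochondria for oxidation. The sources used here do not give the driver of the deletion, the sex or the age of the mice. The labels name separate samples without saying that each came from its own mouse, so the p-values reflect only how far these samples differ, which may be partly technical.

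Complement is a cascade of plasma proteases that marks microbes and damaged cells, recruits phagocytes and ends in a pore through the target membrane. Coagulation is a second plasma protease cascade, which ends when thrombin turns fibrinogen into fibrin, and fibrinolysis dissolves that fibrin again. Hepatocytes make most of the circulating proteins of these cascades, while receptors and some factors come from macrophages, endothelial cells and other cells. In bulk liver RNA, fewer cells of a type and less RNA per cell cannot be told apart.

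Between 20599078 and 26955922 expected counts were assigned per library. Before TMM scaling, a count of 3 corresponded to 0.111 to 0.146 CPM (counts scaled to a common library total), which covers counting error only. Other CPM values here are TMM-scaled, so this range is approximate for them. Cpt1a checked the labels: it lay between 319.7 and 504 CPM in the WT libraries and between 70.5 and 93.9 CPM in the CKO libraries (log2 fold change -2.43 ± 0.16 SE, adjusted p = 1.92e-05, edgeR quasi-likelihood test). The hepatocyte marker Alb lay at 49913 CPM or more in every library. On the first principal component over all genes tested, WT1, WT2, CKO2, CKO3 and CKO5 lay on one side of 0 and the other 5 libraries on the other, a division that crosses genotype. Erythroid markers (5 of 5 tested) summed to 1594 and 1604 CPM in WT1 and WT2, and to between 493 and 1204 CPM in the other 8 libraries. Their part in the results below was not tested.

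No complement or coagulation gene passed the test between genotypes. In edgeR's quasi-likelihood test, adjusted by Benjamini-Hochberg over all 13619 genes tested, 0 of the 86 tested members had an adjusted p under 0.05, beside 18 genes in the whole table (0.132%). The members' adjusted p ran from 0.991 to 1.0. DESeq2 called 0 members and 0.683% of all genes, limma-voom with library weights called 0 members and 0.176% of all genes, and limma on log2 TPM called 0 members. At an unadjusted p under 0.05 edgeR gave 2 members (2.33%), C4bp and Cfhr3, against 4.82% of all genes. That count was 4 members (4.65%) with DESeq2, against 5.33% of all genes, and 9 members (10.5%) with limma-voom, against 9.43% of all genes.

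Fold changes of the members were small and mostly below 0. The log2 fold change, CKO against WT, was negative for 74 of 86 members (86.05%) and for 7537 of 13619 genes (55.3%). The members' median was -0.16 and the median of all genes tested was -0.02. These counts depend on the scaling. With library size alone 54 of 86 were negative (median -0.06, all genes 0.07), and on log2(TPM + 0.1) 49 of 86 (median -0.02, all genes 0.08). Of all genes tested, 34.0% were negative with library size alone and 31.8% on log2(TPM + 0.1). The counts by role below stand beside those shares and the 55.3% with TMM scaling. Set against the median of all genes in the same fit, the members' median lay below it by a difference of -0.17 to -0.08 in every setting. The median standard error of a member's log2 fold change was 0.19, about the size of that median. Below, a value in brackets is a member's log2 fold change ± SE, and a pair of CPM values is the mean ± SD of WT and of CKO (n = 5 each), unless stated otherwise.

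**Figure D1:**
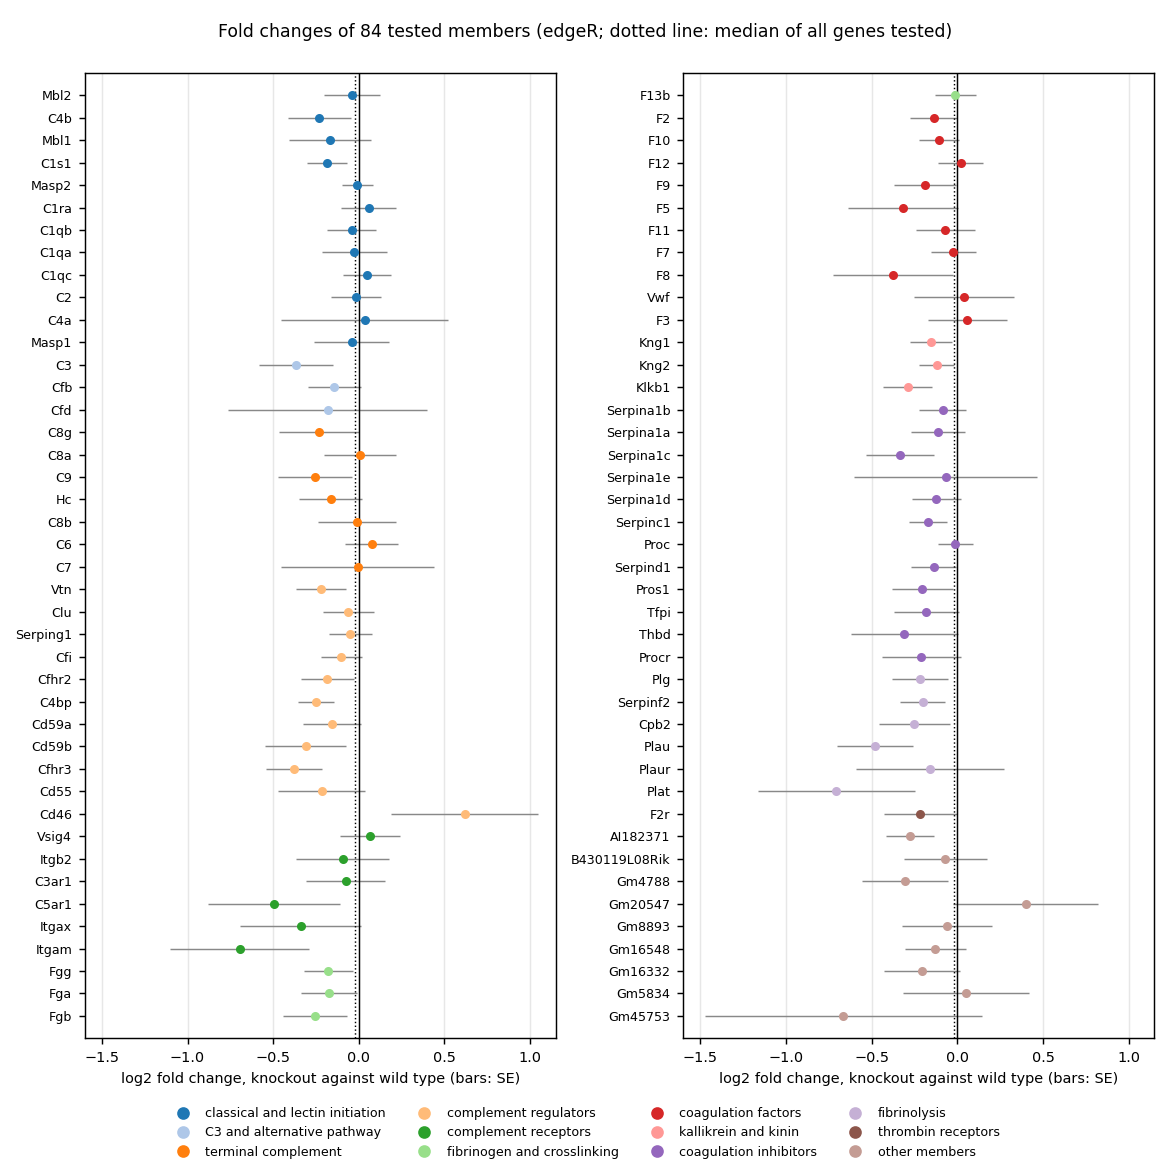
Log2 fold change of 84 of the 86 tested members, CKO against WT with TMM scaling, grouped by role, with bars of 1 standard error. Most points lie a little to the left of 0 with bars that reach it, 74 of all 86 being negative and 54 of 86 when libraries are scaled by size alone, and none passed the adjusted test.

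The members differed widely in level. Levels between genes are given as mean TPM, the authors' value per transcript length, over the 10 libraries. Together the 120 members took up between 3.65% and 5.23% of TPM in the WT libraries and between 3.28% and 5.10% in the CKO libraries. The most abundant were the copies of alpha-1-antitrypsin, an inhibitor of neutrophil elastase, with Serpina1b at 7719 TPM and Serpina1a at 6015 TPM. The fibrinogen gamma chain Fgg (1579 TPM), antithrombin Serpinc1 (1560 TPM), vitronectin Vtn (1546 TPM) and the central complement protein C3 (1282 TPM) followed the alpha-1-antitrypsin copies. The 10 most abundant members held 72.3% of all member TPM. At the other end, 42 members lay under 1 TPM, among them the receptors C5ar1 and Itgam.

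**Figure D2:**
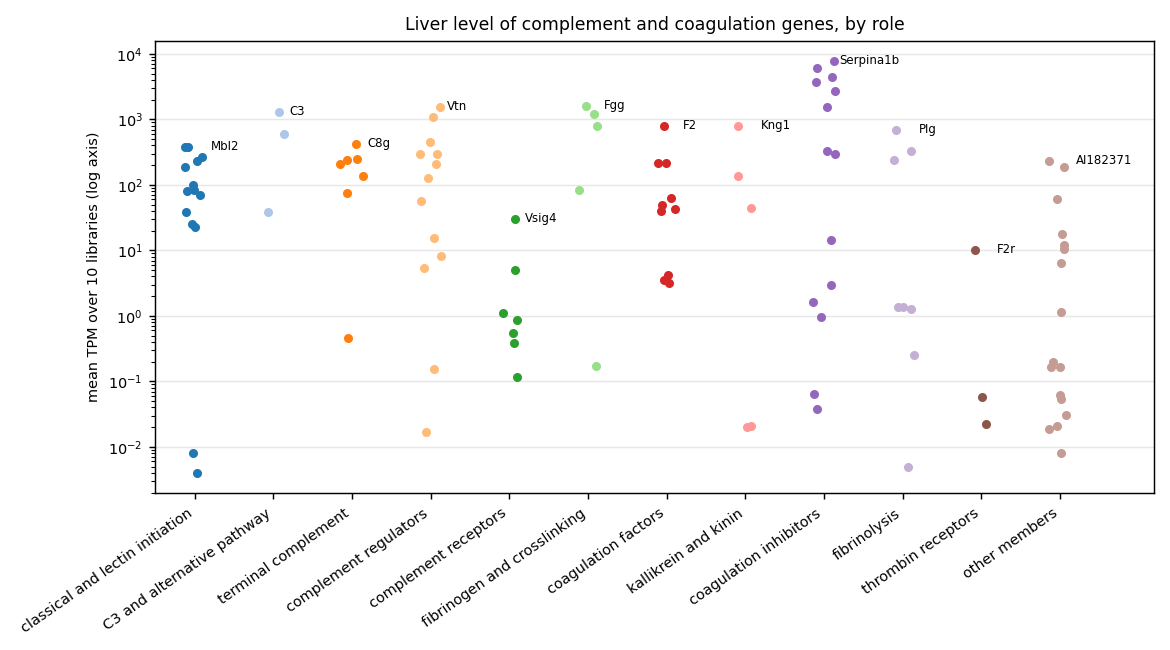
Mean TPM over the 10 libraries (log axis) of each member with a value above 0, grouped by role, with the most abundant member of each role named. Serpina1b reaches 7719 TPM and C3 1282 TPM, while the complement receptors lie at or below the 30.3 TPM of Vsig4.

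The other 34 members did not pass the filter on low counts. Of these, 14 had no count in any library, of which Serpina1f and Zp3r are protein coding. A further 16 had between 1 and 50 counts over all libraries, such as Cr2 (26 counts) and Serpina5 (18 counts). The remaining 4 had more: F13a1, the A subunit of factor XIII, with 152 counts, an antisense transcript Gm15674 with 105 counts, A2m with 68 counts and Gm49368 with 59.9 counts. With no filter, 20 of the 34 were also fitted, which made 106 members, and edgeR called 0 of them.

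In TMM-scaled CPM, C4bp was the one member whose libraries separated by genotype. It encodes C4b-binding protein, a plasma regulator that speeds the decay of the classical pathway convertase and helps factor I to cleave C4b (chr1:130634773-130661632, minus strand, GRCm38). In the WT libraries C4bp lay at 524, 624, 608, 563 and 521 CPM, and in the CKO libraries at 508, 468, 447, 505 and 463 CPM. Every CKO library lay below every WT library, though the nearest pair was 508 CPM in CKO1 and 521 CPM in WT5. The log2 fold change was -0.25 ± 0.11 (SE), with an unadjusted edgeR p of 0.036 and an adjusted p of 0.991. An exact two-sided permutation test of C4bp over the 10 libraries gave p = 0.0079, unadjusted and the smallest that 5 against 5 allow. Any gene whose libraries separate fully gets this value, so it adds nothing to the separation for which C4bp was picked. Libraries of the genotypes did not overlap for 1 of 86 members (1.16%), close to the 1.05% (143 genes) over all genes tested. The log2 fold change of C4bp was -0.16 without WT2 and WT3, and with library size alone as the scaling it was -0.15 ± 0.12 with an unadjusted edgeR p of 0.234. In TPM the libraries of C4bp overlapped, with 172, 177, 245, 254 and 233 TPM in WT and 209, 139, 206, 228 and 204 TPM in CKO.

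The bases before the RefSeq start of C4bp are shown because C4bp was the member with the clearest separation, those of C3 and all 3 fibrinogen chains because they are the abundant complement and coagulation outputs. Capitals mark matches, on either strand, to TTCNNNGAA (STAT type), TTNNGNAA (C/EBP type) and GTTAATNAT. All are 250 bases from RefSeq, build GRCm38.p6, 5′ to 3′ along the gene.
C4bp, chr1:130661619-130661868, minus strand: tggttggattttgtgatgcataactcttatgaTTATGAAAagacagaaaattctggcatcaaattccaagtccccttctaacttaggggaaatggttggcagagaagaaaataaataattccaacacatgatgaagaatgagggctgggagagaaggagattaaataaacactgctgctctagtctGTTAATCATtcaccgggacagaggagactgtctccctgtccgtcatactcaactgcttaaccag
C3, chr17:57228137-57228386, minus strand: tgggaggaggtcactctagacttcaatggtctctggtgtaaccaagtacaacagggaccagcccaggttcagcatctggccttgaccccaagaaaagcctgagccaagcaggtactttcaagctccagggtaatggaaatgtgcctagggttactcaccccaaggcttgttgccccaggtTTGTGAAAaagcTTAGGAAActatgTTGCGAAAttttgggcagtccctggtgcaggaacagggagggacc
Fga, chr3:83025903-83026152, plus strand: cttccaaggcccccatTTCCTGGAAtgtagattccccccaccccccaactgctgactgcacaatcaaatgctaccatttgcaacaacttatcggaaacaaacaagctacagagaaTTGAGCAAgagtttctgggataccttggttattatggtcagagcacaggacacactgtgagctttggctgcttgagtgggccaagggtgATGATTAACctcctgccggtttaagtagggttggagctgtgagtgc
Fgb, chr3:83049864-83050113, minus strand: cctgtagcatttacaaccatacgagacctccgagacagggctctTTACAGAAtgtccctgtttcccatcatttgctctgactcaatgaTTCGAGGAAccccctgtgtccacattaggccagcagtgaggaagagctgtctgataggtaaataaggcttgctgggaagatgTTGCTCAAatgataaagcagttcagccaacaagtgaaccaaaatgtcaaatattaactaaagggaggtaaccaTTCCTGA
Fgg, chr3:83007474-83007723, plus strand: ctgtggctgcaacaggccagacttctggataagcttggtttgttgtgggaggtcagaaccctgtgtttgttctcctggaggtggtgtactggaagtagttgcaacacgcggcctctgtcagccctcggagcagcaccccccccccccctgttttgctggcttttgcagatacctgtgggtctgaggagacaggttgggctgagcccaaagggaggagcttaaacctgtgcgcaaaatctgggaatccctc
C4bp held a GTTAATNAT match 64 bases before its start and Fga one 46 bases before. C3 held 3 C/EBP type matches within 70 bases of its start, and Fgb 1 STAT type and 3 C/EBP type matches, the last of which runs past the printed end. Fgg held 0 matches to the letters searched.

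The letters GTTAATNAT were the rarest of those found in members. Windows of 250 bases before to 50 bases after the start were searched for 60 of the 86 tested members that RefSeq's table holds, which gave 64 promoters. Matches to them stood in 8 of the 64 (12.5%) and in 263 of 32851 promoters of all genes (0.801%). STAT type matches stood in 12 (18.8%) against 8.30%, and C/EBP type matches in 37 (57.8%) against 40.7%. The letters CAAAGTCCA (HNF4 type) and TTGCGCAA were found in 0 of the 64, against 0.475% and 0.183% of all promoters. The other 6 GTTAATNAT matches are shown with 10 bases on each side.
Hc, chr2:35061471-35061499, minus strand: tctgacattaATAATTAACcggagaacta
AI182371, chr2:35100720-35100748, minus strand: ttctccttgtGTTAATAATtaacacgacc
F13b, chr1:139501643-139501671, plus strand: agacattgtaATTATTAACttgttttgtc
Cfhr2, chr1:139858791-139858819, minus strand: taaatgtaaaATGATTAACttattattgt
Cfhr3, chr1:139661078-139661106, minus strand: taagtgtaaaATAATTAACttaatattgt
Gm4788, chr1:139781332-139781360, minus strand: taaatgtaaaATGATTAACttattattgt
Cfhr2, Cfhr3 and Gm4788 belong to 1 family of copies, the windows of Cfhr2 and Gm4788 were identical, and in AI182371 a second match on the other strand overlaps the first. A match is a run of letters and not a shown binding site.

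The genes that start the classical and lectin pathways did not pass the test, and 9 of 12 were negative with TMM scaling (median log2 fold change -0.03) but 3 of 12 with library size alone (median 0.08). C1q subunits recognise antibody bound to a target, mannose-binding lectins recognise sugars, and their proteases cleave C4 and C2. C4b, which encodes complement C4, lay at 868, 1083, 1520, 1203 and 1071 CPM in WT and at 1264, 680.3, 906, 1097 and 951 CPM in CKO, so the groups overlapped (-0.23 ± 0.19). C1s1, the protease of the C1 complex, lay at 484 ± 52.0 CPM in WT and 425 ± 38.8 CPM in CKO (SD, n = 5 each). Mbl2, a mannose-binding lectin, lay at 327 ± 64.1 CPM in WT and 318 ± 53.7 CPM in CKO, and its relative Mbl1 at 189 ± 72.4 and 168 ± 40.9 CPM. The lectin protease Masp2 was among the flattest members, between 183 and 206 CPM in all 10 libraries. C1qa lay at 75.8 and 94.2 CPM in WT1 and WT2 and at 45.8 to 73.5 CPM in the other 8 libraries. In CPM the levels of C1qb and C1qc were also highest in those WT libraries. In TPM the highest library was CKO5 for C1qa, C1qb and C1qc, at 103.6, 101.5 and 89.5 TPM. The Kupffer cell and macrophage markers (8 of 8 tested) summed to 509.9 and 481 CPM in WT1 and WT2. That is within the 418 to 597 CPM of the other libraries. C4a, the gene of the sex-limited protein in the mouse, is annotated here as a processed transcript and not as protein coding. Its level ranged from 9.44 to 51.6 CPM in WT and from 12.2 to 61.0 CPM in CKO.

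C3 and factor B, the proteins that form the alternative pathway convertase, had lower means in CKO but overlapping libraries. C3 lay at 3137, 3713, 6112, 4195 and 5426 CPM in WT and at 4662, 2402, 2974, 3617 and 3856 CPM in CKO. Of the CKO libraries, 2 lay below every WT library, while CKO1 was above 3 of the 5 WT libraries (-0.37 ± 0.22, exact permutation p = 0.175, unadjusted). Cfb, factor B, stood at 931 ± 136 CPM in WT and 842 ± 151 CPM in CKO (-0.14 ± 0.15). Cfd, the protease that cleaves factor B and an abundant adipocyte product, varied 11.5-fold over libraries, with 9.68, 24.5, 12.03, 67.0 and 14.7 CPM in WT and 12.97, 46.6, 5.81, 29.9 and 17.8 CPM in CKO. The libraries WT4 and CKO2, highest for Cfd, also had 5.43 and 6.85 CPM of Cidea, against 0.07 to 3.68 CPM elsewhere. The adipocyte-defining Adipoq and Lep were at or near 0, with at most 0.222 CPM. The whole adipocyte list, of which 2 of 4 genes were tested, summed to 10.0 to 21.9 CPM in WT and 7.90 to 21.6 CPM in CKO, and its part in the level of Cfd was not tested.

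Of the 7 genes of the membrane attack complex, 5 were negative with TMM scaling (median -0.01) and 3 with library size alone (median 0.07). Hc encodes complement C5 and lay at 691 ± 187 CPM in WT and 616 ± 112 CPM in CKO. C8g, the gamma chain of C8, lay at 526, 545, 283, 280.4 and 261 CPM in WT and at 264, 388, 289.5, 279.6 and 393 CPM in CKO. In TMM-scaled CPM its high libraries were WT1 and WT2, both above every CKO library. WT3 and WT4 lay within the CKO range and WT5 just below it. In TPM the highest library of C8g was CKO5 at 556 TPM, against 519 TPM in WT1 and 472 TPM in WT2. The gene overlaps Fbxw5 on the opposite strand, and the sources used here do not say whether counting used strand. C8a, the alpha chain of C8, lay at 666 ± 232 CPM in WT and 670.01 ± 117 CPM in CKO. C9, which forms the pore, lay at 447 ± 109 CPM in WT and 374 ± 105 CPM in CKO (-0.26 ± 0.22).

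The regulators that protect host surfaces were negative for 11 of 12 tested genes with TMM scaling (median -0.20), for 9 of 12 with library size alone and for 7 of 12 on log2(TPM + 0.1). Vitronectin Vtn, which blocks membrane insertion of the attack complex, lay at 2261, 2337, 2223, 1613 and 1762 CPM in WT and at 1997, 1587, 1652, 1566 and 1947 CPM in CKO (-0.22 ± 0.15). WT4 and WT5 lay within the CKO range and the other 3 WT libraries above it. Cfhr3, annotated as an unprocessed pseudogene of a family of complement regulator copies, lay at 11.2, 12.04, 15.8, 16.3 and 13.3 CPM in WT and at 12.8, 12.5, 7.83, 10.9 and 8.98 CPM in CKO. With -0.38 ± 0.16 and an unadjusted edgeR p of 0.040 (adjusted p = 1.0) it was the other member under 0.05, and its copies in the family share sequence, so its level is uncertain. Serping1, the inhibitor of C1 and of kallikrein (-0.05 ± 0.13), and clusterin Clu (-0.06 ± 0.15) differed by less than the spread between libraries. Cd46 was the one regulator with a positive value, 0.62 ± 0.43, at a mean below 1 CPM.

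The complement receptors, which are carried mainly by myeloid cells, were low: 5 of 6 were negative with TMM scaling (median -0.22) and 3 of 6 on log2(TPM + 0.1). Vsig4, a receptor of Kupffer cells for C3 fragments, lay at 34.5 ± 5.003 CPM in WT and 36.1 ± 8.97 CPM in CKO. Itgam, the alpha chain of complement receptor 3, lay at 0.844, 1.18, 1.75, 4.54 and 1.91 CPM in WT and between 0.959 and 1.95 CPM in CKO. C5ar1, the receptor of C5a, was likewise highest in WT4 at 3.79 CPM, with 0.83 to 2.17 CPM in the other 9 libraries. Itgb2, the beta chain that pairs with Itgam, lay at 12.8 ± 4.27 and 12.04 ± 4.13 CPM, and C3ar1, the receptor of C3a, at 4.53 ± 1.26 and 4.31 ± 1.148 CPM. The neutrophil markers, of which 3 of 6 were tested, summed to 8.00 CPM in WT4 and 2.60 to 4.72 CPM elsewhere, and their defining genes Mpo, Ly6g and Elane were at or near 0. The Kupffer cell and macrophage markers summed to 440 CPM in WT4, the lowest of the WT libraries, and to 418 to 597 CPM elsewhere. Vsig4 was also lowest of the WT libraries in WT4, at 25.8 CPM. The part of either set of markers in the receptor levels was not tested. The log2 fold change of Itgam was -0.70 ± 0.41, and -0.17 ± 0.31 without WT4. That of C5ar1 was -0.49 ± 0.39, and -0.10 ± 0.34 without WT4.

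**Figure D3:**
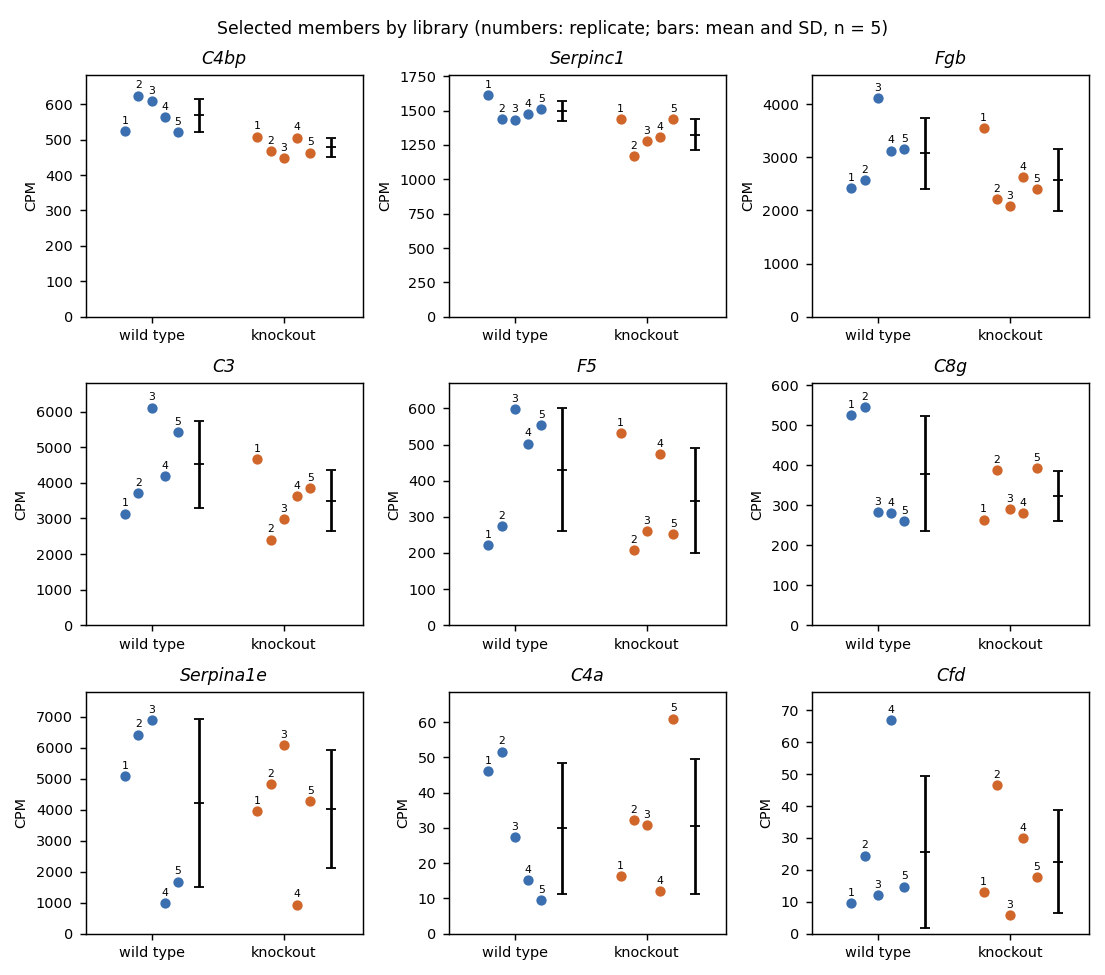
CPM by library of selected members, with each point 1 library numbered by replicate and bars giving mean and SD (n = 5). With TMM scaling the 5 knockout points of C4bp lie at 447 to 508 CPM and its 5 wild type points at 521 to 624 CPM, while the other 8 members shown overlap.

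The 3 fibrinogen chains, the substrate of thrombin, had means in CKO that lay within the spread of the WT libraries. They are encoded side by side, Fgg at chr3:83007724-83015049, Fga at chr3:83026076-83033627 and Fgb at chr3:83040141-83049863 (GRCm38). Fgb, the beta chain, lay at 2423, 2569.7, 4117, 3127 and 3156 CPM in WT and at 3549.6, 2217, 2089, 2634 and 2404 CPM in CKO (-0.26 ± 0.19). The alpha chain Fga lay at 2326 ± 342 CPM in WT and 2059 ± 419.7 CPM in CKO, and the gamma chain Fgg at 2449 ± 322 and 2163 ± 303 CPM. Summed, the chains gave 7854 ± 1218 CPM in WT and 6801 ± 1227 CPM in CKO. Values of the genotypes overlapped in each chain: WT3 was the highest library for all 3, and CKO1 exceeded at least 3 WT libraries for each. The factor XIII B subunit F13b, a carrier of the fibrin crosslinking enzyme, was flat at 175 ± 23.4 and 174 ± 17.5 CPM.

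Among the coagulation factors 7 of 10 were negative with TMM scaling (median -0.09) and 4 of 10 with library size alone (median 0.01). Prothrombin F2 was the most abundant, at 1425 ± 147 CPM in WT and 1295 ± 196 CPM in CKO (-0.14 ± 0.14). Factor X, F10, which cleaves prothrombin, lay at 379 ± 28.7 and 353 ± 43.9 CPM, and factor XII, F12, the contact activation protease, at 368 ± 48.4 and 373 ± 46.9 CPM. F5, the cofactor of factor X, separated libraries within each genotype, with 221, 275, 598, 503 and 553 CPM in WT and 531, 208, 260.2, 474 and 252.005 CPM in CKO. Its low libraries were WT1, WT2, CKO2, CKO3 and CKO5, the same 5 that lay together on the first principal component. F8, the cofactor of factor IX, lay at 14.1 ± 5.89 and 10.9 ± 4.63 CPM. F9, which is affected in haemophilia B, lay at 170.4 ± 28.5 and 149 ± 36.7 CPM, and tissue factor F3, the trigger of coagulation, near 5 CPM (4.86 ± 0.638 and 5.08 ± 1.74).

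The 3 tested kallikrein and kinin genes were negative under TMM scaling (median -0.16), under library size alone and on log2(TPM + 0.1). None passed the test. F12, which starts contact activation, is counted above with the coagulation factors and was not negative with TMM scaling (0.02 ± 0.13). Klkb1, plasma prekallikrein, lay at 203, 317, 270.5, 209 and 228 CPM in WT and at 227, 224, 184, 189 and 181 CPM in CKO. Of the CKO libraries 3 lay below every WT library (-0.29 ± 0.14, exact permutation p = 0.0714 unadjusted, edgeR adjusted p = 1.0). Kng1, which encodes kininogen, the bradykinin precursor, lay at 1404, 1544, 1600.4, 1422 and 1342 CPM in WT and 1607, 1192, 1219, 1295 and 1253 CPM in CKO. CKO1 was above every WT library for Kng1, and the other 4 CKO libraries were below every WT library.

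The coagulation inhibitors were negative for 12 of 12 tested genes with TMM scaling (median -0.16). With library size alone or on log2(TPM + 0.1) 9 of 12 were negative. The 12 include the alpha-1-antitrypsin copies Serpina1a, Serpina1b, Serpina1c, Serpina1d and Serpina1e, which are not independent of each other. These copies encode the inhibitor of neutrophil elastase named above, so the list does not hold inhibitors of coagulation alone. Serpina1e (-0.07 ± 0.53) had the other sign in 10 of 22 alternatives. Antithrombin, Serpinc1, inhibits thrombin and factor X and lay at 1610, 1439, 1434, 1475 and 1514 CPM in WT and at 1436, 1170.3, 1277, 1308 and 1438 CPM in CKO. CKO2, CKO3 and CKO4 lay below every WT library, and CKO1 and CKO5 lay between WT3 and WT2, the lowest of the WT libraries. The log2 fold change was -0.17 ± 0.11, with an exact permutation p of 0.024 unadjusted and an edgeR adjusted p of 1.0; with library size alone it was -0.08 ± 0.14. Protein C and its cofactor protein S inactivate factors V and VIII, and their genes lay, for Proc, at 482 ± 38.5 and 478 ± 24.0 CPM and, for Pros1, at 47.0 ± 9.59 and 40.8 ± 9.02 CPM. The alpha-1-antitrypsin copies share nearly identical sequence, so counts could be split among them and single copies are uncertain. Summed over 15 entries they lay at 30253 ± 5291 CPM in WT and 27445 ± 4063 CPM in CKO. Serpina1c had the most negative copy value among those tested, at 6107 ± 1389.5 and 4841 ± 1072 CPM (-0.33 ± 0.20). One copy, Serpina1e, lay at 5079, 6422, 6885, 997 and 1684 CPM in WT and at 3956, 4835, 6082, 942 and 4278 CPM in CKO. WT4, WT5 and CKO4 formed its low set and the genotypes overlapped.

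Fibrinolysis genes were negative in 7 of 7 tested with TMM scaling (median -0.25) and with library size alone, and in 6 of 7 on log2(TPM + 0.1). These counts also depend on single libraries: without WT4 the log2 fold change of Plaur, a gene of this list, was 0.39 ± 0.35. The list holds genes that promote fibrinolysis and genes that slow it. Plg, which encodes plasminogen, lay at 1828 ± 276 CPM in WT and 1573 ± 320.5 CPM in CKO (-0.22 ± 0.16). Its inhibitor Serpinf2, alpha-2-antiplasmin, lay at 602 ± 29.5 and 523 ± 88.7 CPM. Cpb2, a carboxypeptidase that slows fibrinolysis, lay at 325 ± 94.0 and 273 ± 61.2 CPM. Plau, urokinase, was scarce, at 3.02, 2.31, 2.62, 4.18 and 4.21 CPM in WT and 2.53, 2.69, 2.53, 2.47 and 1.55 CPM in CKO (-0.48 ± 0.22, exact permutation p = 0.0952, unadjusted). F2r, the thrombin receptor on cells, lay at 32.8 ± 8.30 and 28.2 ± 7.90 CPM.

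AI182371 and Gm4788 were among the most abundant of the 30 members given no role here, of which 9 were tested and 7 of those were negative with TMM scaling and 5 with library size alone. AI182371 lay at 279.96, 319.7, 366, 279 and 298 CPM in WT and at 281, 326, 216, 227 and 225 CPM in CKO, with CKO3, CKO4 and CKO5 below every WT library (-0.27 ± 0.14, exact permutation p = 0.0952, unadjusted). Gm20547 ran from 15.8 to 75.9 CPM and shares its strand and position with C2 and Cfb, so its reads could belong to either. B430119L08Rik is antisense to Serpina1c, and the same limit on strand applies to that pair.

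Part of the members' variation lay between libraries of the same genotype. The mean level of the tested members, in log2 CPM relative to each gene's own mean, was -0.01, 0.02, 0.21, 0.04 and 0.08 in WT and 0.10, -0.11, -0.21, -0.04 and -0.07 in CKO. WT3 was high and CKO3 low, and CKO1 lay within the WT range. WT3 was the highest library for 34 of the 86 members, and CKO2 or CKO3 the lowest for 22 and 17. Without WT3, 64 of 88 tested members were negative with a median of -0.11. Among the 71 members above 5 CPM on average, the highest library exceeded the lowest by a median of 1.87-fold, against 1.69-fold for the 9180 such genes in the table.

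**Figure D4:**
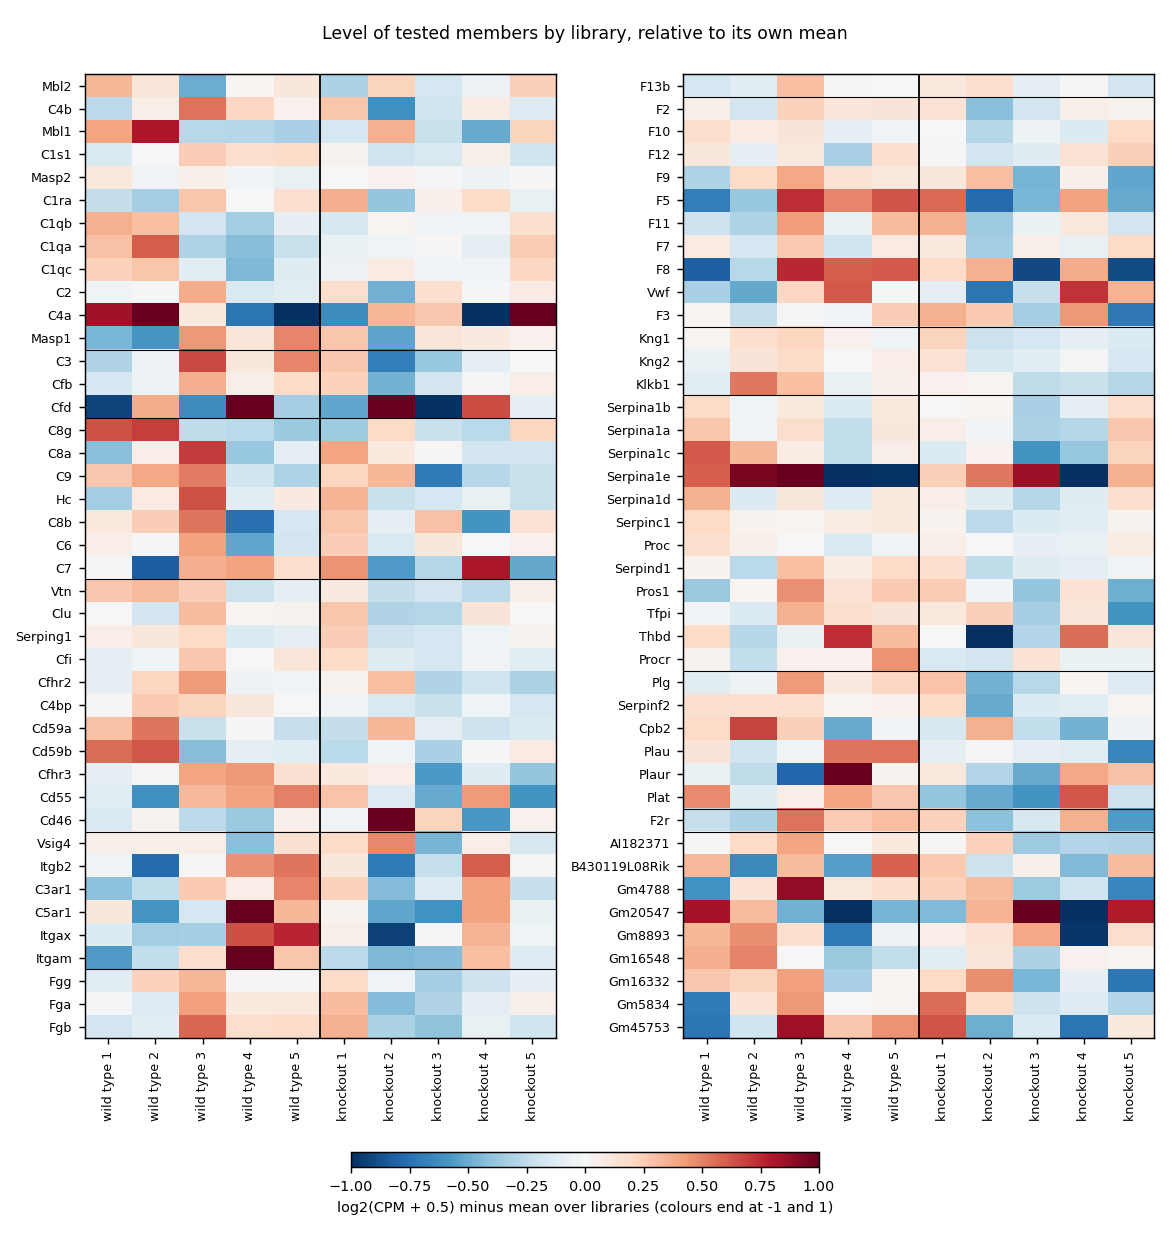
Level of 84 of the 86 tested members in each library, as log2 CPM minus the gene's mean, with members grouped by role and libraries by genotype. WT3 is the highest library for 34 of 86 members and CKO2 the lowest for 22, so the colours differ by library as well as by genotype.

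Genes of the same plasma protein biology outside the map gave the following. Of 16 genes of the vitamin K cycle and factor secretion, 12 were negative with TMM scaling (median -0.07) and 7 with library size alone (median 0.02), and none passed the adjusted test. Ggcx, the carboxylase that makes factors II, VII, IX and X able to bind calcium, lay at 33.9, 36.8, 41.6, 37.0 and 38.9 CPM in WT and 35.2, 24.8, 26.0, 30.1 and 33.1 CPM in CKO (-0.34 ± 0.12, exact permutation p = 0.0159 unadjusted, edgeR adjusted p = 0.773). All but CKO1 of the CKO libraries lay below every WT library. The quinone reductase Nqo1 (0.59 ± 0.21, adjusted p = 0.786) and the protease inhibitor Tfpi2 (-0.33 ± 0.14, adjusted p = 0.999, both edgeR) had an unadjusted p under 0.05.

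Among transcription factors that control liver plasma proteins, Cebpb had the smallest p. Of 24 such genes and IL-6 signalling genes, 15 were negative with TMM scaling and 7 with library size alone, and Hnf4a (-0.08 ± 0.13) and Stat3 (-0.07 ± 0.18) differed by less than their error. Cebpb, a C/EBP factor of the acute phase response, lay at 16.3, 20.1, 14.2, 14.7 and 11.5 CPM in WT and 19.7, 59.7, 52.7, 53.3 and 30.0 CPM in CKO. Only CKO1 overlapped the WT libraries. The log2 fold change of Cebpb was 1.49 ± 0.27 with an adjusted edgeR p of 0.067. An adjusted p under 0.05 was reached with DESeq2, with library size alone and without CKO1, the library that overlapped. In all other alternatives the adjusted p was above 0.05. It ran from 0.058 with limma on log2(TPM + 0.1) to 0.260 with edgeR without WT2 and WT3.

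None of the inducible acute phase proteins, which the liver makes in inflammation, passed the adjusted test. Of 24 genes 23 were negative with TMM scaling (median -0.41) and 21 with library size alone (median -0.31). Of the 24, 8 had an unadjusted edgeR p under 0.05, all lower, against 4.82% of all genes tested, and 0 were called. Libraries of the genotypes did not overlap for 1 of the 24, against 1.05% of all genes tested. Saa1, serum amyloid A, lay at 749, 3091, 1896, 188 and 171 CPM in WT and at 670.5, 742, 201, 126 and 462 CPM in CKO. WT2 and WT3 were far above the other libraries. The mean level of the list was 0.77 in WT2, 0.61 in WT3 and -0.56 in CKO3, its lowest library. The complement and coagulation members stood at 0.02, 0.21 and -0.21 in those libraries. For the members WT3 was the highest library and CKO3 the lowest. Over the WT libraries the SD of the mean level was 0.40 for the acute phase list and 0.08 for the members. The part of an acute phase state in the members' levels was not tested.

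**Figure D5:**
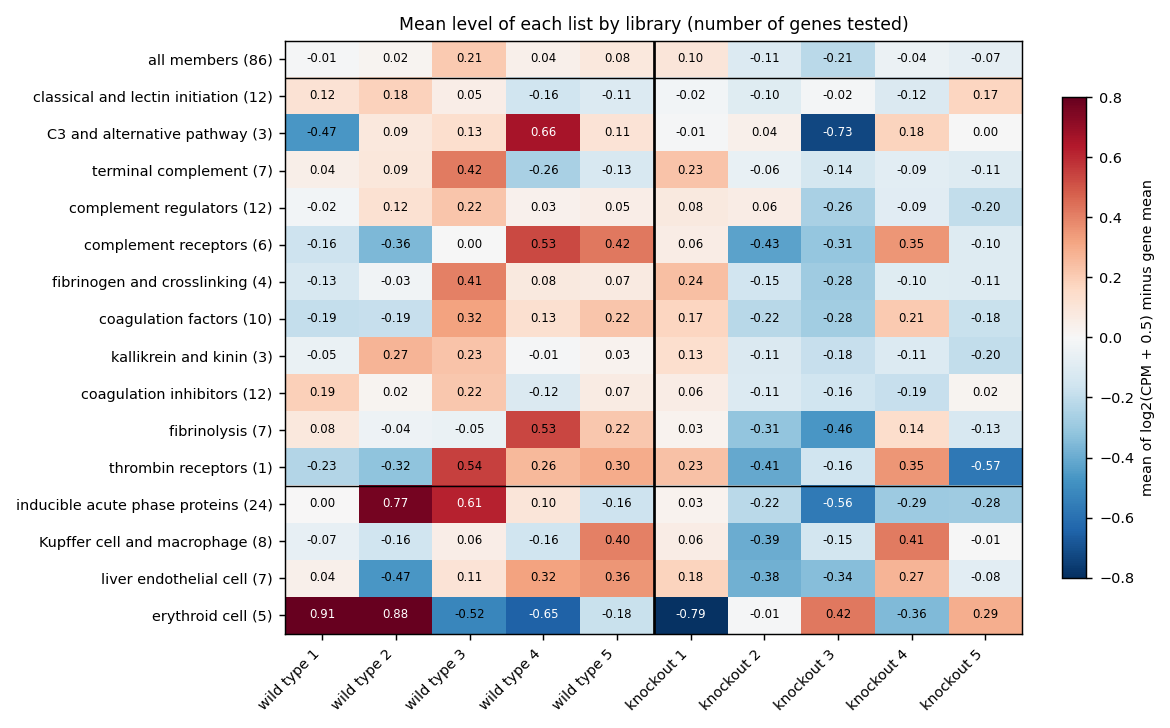
Mean level per library, in log2 CPM relative to each gene's mean, of the role lists, of the acute phase list and of 3 lists of cell type markers, with TMM scaling. The acute phase list is highest in WT2 at 0.77 and lowest in CKO3 at -0.56, whereas all tested members together range from -0.21 in CKO3 to 0.21 in WT3.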

How the data were processed

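Liver RNA sequencing libraries of 5 WT and 5 CKO samples were grouped by the genotype label. The submitters' processing notes name fastp, HISAT, RSEM and the build GRCm38.p5, and no versions. The authors deposited, for each gene and library, 1 expected count and 1 TPM value, made before deposit with the tools just named as far as those notes tell, and their own log2 fold change and p-value per gene; these last 2 columns were not used. Members were read from the deposited pathway column. The 3 lines of the table that name no gene were left out. Expected counts, of which 7.68% were not whole, were rounded. Genes were filtered with filterByExpr, which left 13619, scaled with TMM and tested with edgeR's quasi-likelihood test (edgeR 4.0.16, limma 3.58.1, DESeq2 1.42.0, R 4.3.3), adjusted by Benjamini-Hochberg over all 13619 with a threshold of 0.05. The test was tried on simulated data. Standard errors were derived from the F statistic. CPM are TMM-scaled and given as mean ± SD, and levels per library are log2(CPM + 0.5) minus the gene's mean. All 120 members were found in GENCODE M21 (GRCm38), the source of coordinates. All pairs of libraries differed by more than counting error (chi-square per df of at least 30.1).

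The members and gene lists were chosen with earlier results of these data known. Named genes were, in each role, the 3 most abundant and the 2 with the smallest p, and any member whose genotypes did not overlap. From outside lists, genes with an unadjusted p under 0.05 were named. The acute phase proteins with such a p were only counted. Further members with wide variation between libraries, or that illustrate a role, were named after their values were seen. Scaling, filter, DESeq2, limma-voom, limma on log2 TPM, robust estimation, leaving out libraries and a replicate block were tried as alternatives. Replicate numbers were not taken as pairs. A few genes counted among the members and lists are not reported by name here.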

Additional observations from a re-analysis of the deposited data

Results flagged for a closer look

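The screen covered members named for their abundance, p or separation, and not those named after their values were seen. Among the 86 groups screened, 5 held 1 library far from the other 4 by Dixon's gap criterion, where chance flags about 1 in 20 groups. Cfd in WT had its highest library, WT4, at 67.0 CPM. Vsig4 in WT had its lowest library, also WT4, at 25.8 CPM. Itgam in WT was highest in WT4 at 4.54 CPM. Kng1 in CKO was highest in CKO1 at 1607 CPM. Plau in CKO was lowest in CKO5 at 1.55 CPM. Outside the screen, members such as Hc and C1qa also met the criterion in CKO. Hc was highest in CKO1 at 811 CPM and C1qa in CKO5 at 73.5 CPM. Of the mean levels of role lists, C3 and the alternative pathway had its lowest CKO library, CKO3, at -0.73. That list is a mean over 3 genes, of which Cfd was lowest in CKO3 at 5.81 CPM, while C3 and Cfb were lowest in CKO2. Terminal complement had its highest CKO library, CKO1, at 0.23, and kallikrein and kinin genes had theirs, CKO1, at 0.13. Over all tested members, 12 of 172 groups held 1 library far from the other 4.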

How the results depend on the processing

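No member was called in any of 22 alternatives, and no named member changed its side of the threshold. Of the members named for their abundance, p or separation, 14 changed sign in at least 1. Of tested members, 45 negative and 2 positive ones kept their sign in all. The number of all genes called was 93 with DESeq2, 8 on log2(TPM + 0.1), 11 on log2(TPM + 1) and 1 without WT2 and WT3, and 6 to 21 when single libraries were left out. The members' median was -0.024 on log2(TPM + 0.1) and -0.033 on log2(TPM + 1), and 49 members were negative on the first of these. Leaving out single libraries gave a median of -0.20 to -0.11, 64 to 78 negative members and a difference in mean level of -0.18 to -0.10. The cause of these shifts was not tested. With the replicate block 26 genes and 0 members were called, and 71 members were negative. The correlations of same-numbered libraries ran from -0.48 to 0.50, and 4 of 10 libraries correlated best with their own number, so the numbers were not taken as pairs. Protein-coding members alone, chosen after seeing the data, gave 0 calls, a median of -0.16 and 69 of 79 negative. The filter on low counts kept 34 members out of the test, of which 20 were fitted without it and none called. Counts of 3 or fewer in a library lie at or under the limit that a count of 0 allows.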

Other observations

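Of the 5 cholangiocyte markers, 4 were negative with a median log2 fold change of -0.58, and 0 passed the adjusted edgeR test. Spp1, which encodes osteopontin, lay at 32.5, 42.1, 62.2, 112 and 50.1 CPM in WT and at 35.3, 39.5, 16.6, 44.1 and 17.4 CPM in CKO (-0.97 ± 0.35, exact permutation p = 0.0714, unadjusted). WT4 was its highest library and CKO3 and CKO5 its lowest. Sox9, a transcription factor of bile duct cells, gave -0.62 ± 0.19 with an adjusted edgeR p of 0.566.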
